A study of Mus musculus with 6 samples.

Results

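The genes of the proteasome were examined in the kidneys of cisplatin-treated wild-type (WT) and Trpm2-/- (KO) mice. The members were the protein-coding genes whose symbol starts with Psm, a letter from a to g and a digit, and 50 of the 54532 genes in the count table met that rule. They were divided by role into 8 genes of the alpha rings and 7 of the beta rings of the 20S core, 9 of the base and 8 of the lid of the 19S regulatory cap, 3 immunoproteasome subunits, 5 genes of other activators, and 8 assembly factors or inhibitors. Psmb11, the thymus form of a catalytic subunit, and Psmc3ip, a meiotic recombination gene that only shares the prefix, stood alone. RNA-sequencing was performed on 3 kidneys from WT mice and 3 from KO mice, numbered 1, 2 and 4. All mice were C57BL/6J, aged 6 to 8 weeks according to the sample labels, and were examined 72 h after cisplatin at 18 mg/kg, a platinum drug that injures the proximal tubule. Both genotypes received the drug, so the comparison is between genotypes in injured kidneys and does not show the response to cisplatin. According to the paper, WT mice were bought from a supplier and the KO line came from the University of Leeds. Littermate controls are not described, so genotype and source of the mice cannot be told apart. The KO line carries a deletion that leaves a TRPM2 protein without part of its membrane-spanning region, and this protein forms no functional channel. TRPM2 is a calcium-permeable channel opened by oxidative stress, and the allele affects the whole body, not the tubule alone.

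The proteasome degrades proteins that carry ubiquitin chains. Its core is a barrel in which outer alpha rings gate entry and inner beta rings hold the proteolytic sites, and its cap recognises, unfolds and feeds in the substrate. Interferons induce immunoproteasome subunits that replace the constitutive catalytic ones and change which peptides are made for MHC class I. The transcription factor Nfe2l1 is known to raise most subunit genes when proteasome activity falls short.

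The libraries held 14053307 to 17150089 counted reads, at which 3 reads correspond to 0.175 to 0.213 CPM (reads of a gene scaled to the size of the library). The 50 genes took 0.541% to 0.568% of the reads in WT kidneys and 0.482% to 0.516% in KO kidneys. Reads of the mitochondrial genome took 4.43% to 4.72% in WT and 7.91% to 11.0% in KO, with the highest share in KO 4. Trpm2 itself had 5, 5 and 27 reads in WT and 10, 16 and 20 in KO. These reads were counted over the whole gene, including exons outside the deletion, so they do not check the genotype, and the groups rest on the labels. All 8 proximal tubule markers, among them the phosphate transporter Slc34a1, were lower in KO at an edgeR adjusted p under 0.05, and their summed level was 4687 to 6222 CPM in WT and 1999 to 2414 CPM in KO. The 3 loop and distal tubule markers were also all lower in KO, but only Umod passed (log2 fold change -1.97, edgeR adjusted p = 0.0326). Their summed level was 786 to 2153 CPM in WT and 254 to 902 CPM in KO, which overlapped. In whole-kidney RNA, fewer cells of a type and less RNA per cell cannot be told apart.

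Most proteasome genes had lower values in KO kidneys, but few passed the test. Of the 48 members that passed the filter on low counts, 41 (85.4%) had a log2 fold change (KO minus WT) below 0, against 48.4% of the 15816 genes tested. The median of the members was -0.28 on the log2 scale, within a range from -0.71 to 0.35, and the median of all genes was 0.02. In 21 members (43.8%) every KO kidney was below every WT kidney, as was the case for 16.8% of all genes, and in 0 members was every KO kidney above every WT kidney (16.7% of all genes). At an edgeR adjusted p under 0.05, 3 members fell (Psmg1, Psmd9 and Psma6) and 0 rose. That is 6.25% of the members tested, beside 7.28% of all genes called lower and 4.74% called higher, so at this threshold the number of calls was near the background. At an unadjusted p under 0.05, 18 members (37.5%) were lower and 0 higher, against 14.3% and 14% of all genes. No member passed the threshold of an absolute log2 fold change above 1 with a p under 0.05, which 4.1% of all genes passed downwards and 3.5% upwards. The count of 3 changed when single kidneys were left out, as did the share of all genes called lower. It was 0 without WT 2 and 0 without WT 3, where 3.17% and 2.88% of all genes were called lower. Without KO 1 it was 4 (8.33% of the members, against 5.19% of all genes), and without KO 2 it was 5 (10.4%, against 7.62%). Without WT 1 or KO 4 it was 2 (4.17%, against 5.84% and 6.34%). With DESeq2 it was 9 (18.8%), against 9.13% of all genes, so there the share of members was above the background. Shares of proximal tubule RNA and mitochondrial RNA moved with genotype in the same kidneys, and their part in the lower values was not tested.

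**Figure D1:**
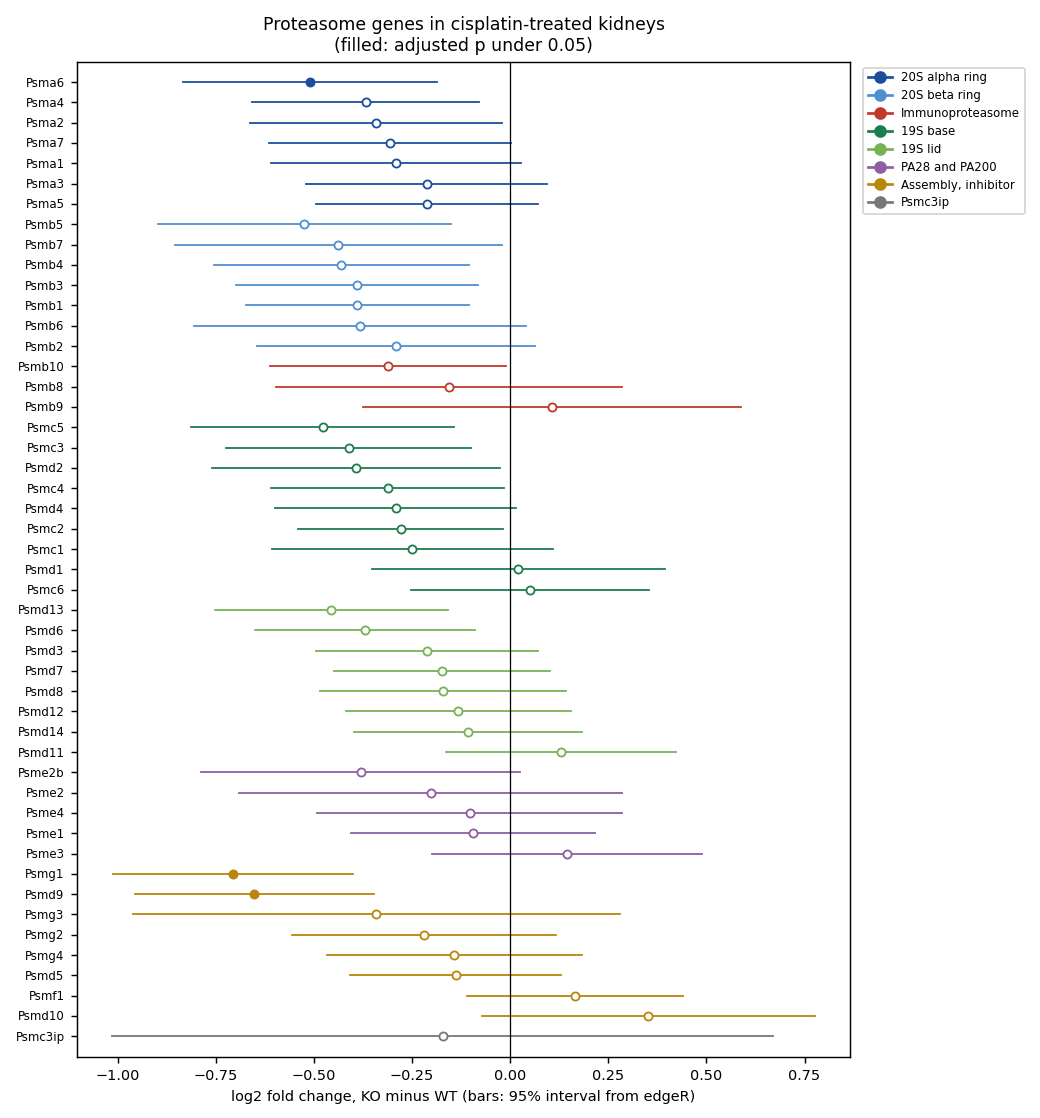
Log2 fold change (KO minus WT) of each of the 48 tested proteasome genes on the horizontal axis, with genes listed by class on the vertical axis and bars giving the 95% interval from edgeR. Filled points mark Psma6, Psmd9 and Psmg1, which passed an adjusted p of 0.05, and 41 of the 48 points lie left of 0.

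The alpha rings form the outer gates of the core. All 7 tested alpha genes were below 0 on the log2 scale, with a median of -0.31. In 5 of them (71.4%, against 16.8% of all genes) every KO kidney was below every WT kidney. Psma6, an alpha ring subunit, was the one alpha gene that passed the test. Its level was 141, 171 and 150 CPM in WT and 119, 114 and 92.2 CPM in KO, and the lowest value was that of KO 4. It fell by 0.51 on the log2 scale (SE 0.14, edgeR adjusted p = 0.0492). This call lay close to the threshold and was kept in 6 of 17 alternatives. The smallest difference of the alpha genes was that of Psma5, with 64.8, 76.9 and 71.5 CPM in WT and 60.2, 66.0 and 57.9 CPM in KO. These values overlapped (log2 fold change -0.21, SE 0.13, edgeR adjusted p = 0.31), and 35.2% of the 75-base windows of Psma5 transcripts also occur in other genes. Psma8, the alpha subunit typical of testis, had 1 to 13 reads in WT and 1 to 8 in KO and was not tested.

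RefSeq (GRCm38.p6) lists 2 starts for Psma6, and the 250 bases before each are shown because Psma6 was the only core subunit that passed the test. The upstream window, chr12:55383972-55384221 on the plus strand, precedes the start of the gene in the count table and holds 2 CCAAT boxes. The inner window, chr12:55398575-55398824, holds 1 match to the NF-kB consensus. Matches are in capitals.

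Psma6 upstream window: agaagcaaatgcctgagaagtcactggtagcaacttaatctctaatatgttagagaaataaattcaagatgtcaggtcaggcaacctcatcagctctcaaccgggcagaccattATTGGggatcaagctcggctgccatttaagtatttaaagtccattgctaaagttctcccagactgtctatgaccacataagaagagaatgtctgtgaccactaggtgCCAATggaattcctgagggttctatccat
Psma6 inner window: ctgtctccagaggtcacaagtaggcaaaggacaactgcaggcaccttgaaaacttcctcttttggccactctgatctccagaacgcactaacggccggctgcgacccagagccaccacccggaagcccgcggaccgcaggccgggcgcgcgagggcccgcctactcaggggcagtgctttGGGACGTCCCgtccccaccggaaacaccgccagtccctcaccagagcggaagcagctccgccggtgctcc

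The beta rings showed the lowest median of the classes. All 7 beta genes were below 0, with a median log2 fold change of -0.39 and a range from -0.52 to -0.29, but none passed the adjusted threshold in edgeR, while 5 (71.4%, against 14.3% of all genes) were lower at an unadjusted p under 0.05 and DESeq2 called Psmb1, Psmb4 and Psmb5 lower, as it did 9.13% of all genes. Psmb5 carries the chymotrypsin-like site. It had 213, 258 and 264 CPM in WT and 176, 199 and 137 CPM in KO. The genotypes did not overlap, and the log2 fold change was -0.52 (SE 0.17, edgeR adjusted p = 0.0711). Psmb6, which carries the caspase-like site, had 178, 223 and 226 CPM in WT and 129, 205 and 147 CPM in KO. Here KO 2 lay within the WT range, and the log2 fold change was -0.38 (SE 0.19, edgeR adjusted p = 0.221). Psmb7, which carries the trypsin-like site, had 87.1, 95.9 and 85.1 CPM in WT and 85.7, 61.7 and 50.6 CPM in KO. KO 1 reached the WT range, and the log2 fold change was -0.44 (SE 0.19, edgeR adjusted p = 0.158). The beta gene with the smallest difference was Psmb2, a non-catalytic subunit, with 83.6, 103 and 87.9 CPM in WT and 78.8, 60.6 and 85.1 CPM in KO. It also overlapped (log2 fold change -0.29, SE 0.16, edgeR adjusted p = 0.262). The non-catalytic Psmb1, Psmb3 and Psmb4 lay between -0.43 and -0.39 with edgeR adjusted p values of 0.0765 to 0.0958. Of the 75-base windows of Psmb5 transcripts, 36.8% also occur in another gene, mainly the predicted gene Gm3375, which had 35 to 86 reads per kidney. Nek6, a kinase gene on the opposite strand, overlaps Psmb7 and had a mean count of 111% of that of Psmb7. Its log2 fold change was 0.16 (edgeR adjusted p = 0.486). Of the 75-base windows of Psmb7 transcripts, 7.83% also occur in Nek6, so the level of Psmb7 is uncertain where strand was not used.

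The windows before Psmb5 and Psmb6 are printed because both hold the letters of the antioxidant response element, TGACNNNGC, which Nfe2l1 and related factors bind. In Psmb5 (chr14:54617996-54618245, minus strand) the match spans bases 47 to 39 before the start, and in Psmb6 (chr11:70525107-70525356, plus strand) bases 9 to 1.

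Psmb5: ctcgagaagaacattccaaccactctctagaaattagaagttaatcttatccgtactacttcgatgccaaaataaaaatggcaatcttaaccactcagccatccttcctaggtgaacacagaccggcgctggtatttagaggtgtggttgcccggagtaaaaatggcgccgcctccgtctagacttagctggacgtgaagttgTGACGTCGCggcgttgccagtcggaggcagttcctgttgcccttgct
Psmb6: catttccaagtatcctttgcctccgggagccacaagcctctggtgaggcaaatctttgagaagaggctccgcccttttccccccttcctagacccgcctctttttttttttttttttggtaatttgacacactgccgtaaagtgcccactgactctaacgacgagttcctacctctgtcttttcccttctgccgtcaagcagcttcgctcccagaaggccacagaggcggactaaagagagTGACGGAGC

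RefSeq windows were found for 42 of the 50 members, 25 of them core or cap genes, and each motif was searched on both strands of the 250 bases before the start. The antioxidant response element letters occurred in 5 of the 42 members (11.9%) and in 4 of the 25 core and cap genes (16.0%), against 11.5% of 27025 genes. The 5 were Psmb5, Psmb6, Psmc6, Psmd12 and Psmd9, of which Psmc6 was at 0.05 and Psmd12 at -0.13 on the log2 scale. CCAAT occurred in 35.7% of the members, 40.0% of the core and cap genes and 37.5% of all genes. The NF-kB letters occurred in 23.8%, 32.0% and 19.7% of them. The interferon-stimulated response element occurred in 3 members (7.14%, against 3.46%), and the gamma-activated site, TTCNNNGAA, in 2 members, Psmb8 and Psmg1 (4.76%, against 8.13%). A match is a run of letters, not a binding site shown to be used.

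The immunoproteasome subunits did not pass the edgeR test, and Psmb10 was the 1 of the 3 with an unadjusted p under 0.05. DESeq2 called none of them. Psmb8, the inducible counterpart of Psmb5, had 25.5, 22.5 and 21.5 CPM in WT and 15.7, 26.2 and 20.5 CPM in KO. The KO kidneys lay on both sides of the WT range (log2 fold change -0.16, SE 0.20, edgeR adjusted p = 0.652). Psmb9, the counterpart of Psmb6, had 10.8, 11.0 and 11.0 CPM in WT and 9.49, 10.8 and 15.1 CPM in KO. KO 4 alone stood above the WT kidneys (log2 fold change 0.11, SE 0.21, edgeR adjusted p = 0.79). Tap1, a peptide transporter gene on the opposite strand, overlaps Psmb9 and had a mean count of 582% of that of Psmb9. Every KO kidney was above WT for Tap1 (log2 fold change 0.28, edgeR adjusted p = 0.163). Of the 75-base windows of Psmb9 transcripts, 3.44% also occur in Tap1. The part of Tap1 in the level of Psmb9, and in the ratio of Psmb9 to Psmb6, was not tested. Psmb10, the counterpart of Psmb7, had 54.8, 49.0 and 50.7 CPM in WT and 37.1, 47.3 and 40.2 CPM in KO. Every KO value was below the WT values, but the difference did not pass the test (log2 fold change -0.31, SE 0.13, edgeR adjusted p = 0.165).

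Each inducible subunit was set against the constitutive one it replaces on the FPKM scale, which divides by gene length. Psmb8 was at 3.94%, 2.86% and 2.67% of Psmb5 in WT and 2.94%, 4.34% and 4.90% in KO. KO 1 lay within the WT range and the other KO kidneys above it, with a difference of 0.35 on the log2 scale (two-sided exact permutation test, n = 3 and 3, p = 0.2, adjusted p = 0.3). Psmb9 was at 3.10%, 2.52% and 2.50% of Psmb6 in WT and 3.77%, 2.69% and 5.24% in KO. KO 2 lay within the WT range here, with a difference of 0.48 on the log2 scale (exact permutation p = 0.2, adjusted p = 0.3). Psmb10 was at 126%, 102% and 120% of Psmb7 in WT and 86.9%, 154% and 159% in KO. KO 1 lay below the WT kidneys and the others above them, with a difference of 0.15 on the log2 scale (exact permutation p = 0.6, adjusted p = 0.6). That difference was -0.000645 without KO 4 and 0.44 without KO 1, so it had no stable direction. With 3 kidneys in each group such a test cannot go below 0.1, so a shift of these sizes was not resolved. The percentages also depend on the gene lengths in the table, which were 899 bases for Psmb5 and 2736 for Psmb8. They were 1872 bases for Psmb6, 3659 for Psmb9, 3421 for Psmb7 and 1705 for Psmb10. On the CPM scale, which does not divide by length, the WT mean was 51.5 for Psmb10 and 89.4 for Psmb7.

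**Figure D2:**
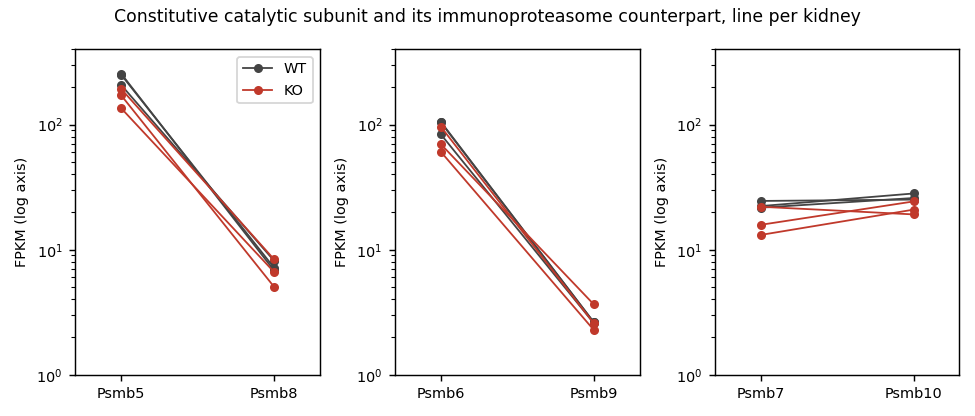
FPKM (log axis) of each constitutive catalytic subunit and its immunoproteasome counterpart, with 1 line for each kidney, WT in grey and KO in red. Psmb8 reaches at most 4.90% of Psmb5 and Psmb9 at most 5.24% of Psmb6, while Psmb10 lies at 86.9% to 159% of Psmb7.

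The ATPases and scaffold proteins of the 19S base unfold substrates and open the core. Of the 9 base genes, 7 were below 0 and none passed the edgeR test, with a median log2 fold change of -0.29. In 5 of them (55.6%, against 16.8% of all genes) every KO kidney was below every WT kidney. At an unadjusted p under 0.05, 5 of the base genes (55.6%, against 14.3% of all genes) were lower. DESeq2 called Psmc3 and Psmc5 lower, as it did 9.13% of all genes. Psmc5, an ATPase, had 155, 186 and 180 CPM in WT and 110, 146 and 118 CPM in KO. Its KO kidneys were all below the WT kidneys (log2 fold change -0.48, SE 0.15, edgeR adjusted p = 0.0675). Another ATPase of the same ring, Psmc6, had 97.9, 120 and 112 CPM in WT and 112, 105 and 126 CPM in KO. The genotypes overlapped, with KO 4 above all WT kidneys, and the log2 fold change was 0.05 (SE 0.14, 95% interval -0.25 to 0.35, edgeR adjusted p = 0.845). Psmd1, a base scaffold, was likewise at 0.02 (95% interval -0.35 to 0.39), while Psmd2, the other scaffold, was at -0.39 (edgeR adjusted p = 0.151).

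The lid holds the deubiquitinase Psmd14 and the subunits around it. Of the 8 lid genes, 7 were below 0 and none passed the edgeR test, with a median of -0.17. In 3 of them (37.5%, against 16.8% of all genes) every KO kidney was below every WT kidney. Lower values at an unadjusted p under 0.05 were found for 2 lid genes, Psmd6 and Psmd13 (25%, against 14.3% of all genes). DESeq2 called Psmd13 lower, as it did 9.13% of all genes. Psmd13 had the lowest log2 fold change, with 129, 147 and 124 CPM in WT and 107, 93.6 and 90.7 CPM in KO. The genotypes did not overlap (log2 fold change -0.46, SE 0.13, edgeR adjusted p = 0.0535). Sirt3, a mitochondrial deacetylase gene on the opposite strand that overlaps Psmd13, fell by 0.93 (SE 0.13, edgeR adjusted p = 0.00333). Of the 75-base windows of Psmd13 transcripts, 6.91% also occur in Sirt3. Since strand-specific counting is not stated, the part of Sirt3 in the value of Psmd13 was not tested. Psmd11, a lid scaffold, was the highest, with 134, 142 and 127 CPM in WT and 164, 145 and 133 CPM in KO. These groups overlapped (log2 fold change 0.13, SE 0.13, edgeR adjusted p = 0.562). Psmd14 itself was at -0.11 (SE 0.13, edgeR adjusted p = 0.637).

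**Figure D3:**
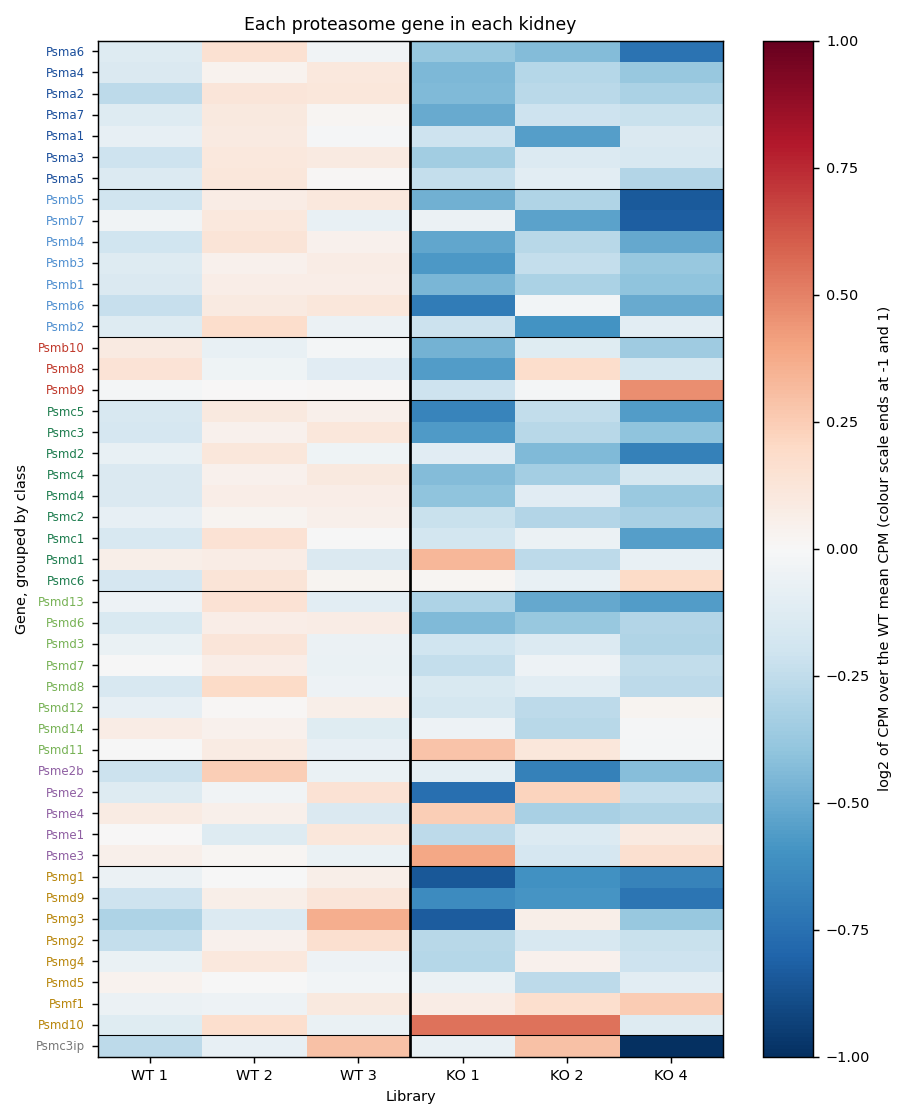
Log2 of the CPM of each tested gene (rows, grouped by class) over its WT mean in each of the 6 kidneys (columns), with blue for lower, red for higher and a colour scale that ends at -1 and 1. Blue prevails in the KO columns of the core and cap rows, and the KO kidneys differ among themselves in the immunoproteasome and activator rows.

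Summed over the genes of a class, the 20S core was at 2113, 2525 and 2454 CPM in WT and 1748, 1947 and 1761 CPM in KO. The means were 2364 ± 220 and 1818 ± 111 CPM (SD, n = 3), so the KO mean was lower, at -23.1%, and the genotypes did not overlap. The 19S cap stood at 2549 ± 178 CPM in WT and 2148 ± 84.1 CPM in KO (SD, n = 3), a difference of -15.7% without overlap. Within these, the difference was -25.2% for the beta rings, -20.5% for the alpha rings, -18.6% for the base and -11.8% for the lid. The immunoproteasome subunits together were at 85.6 ± 4.78 CPM in WT and 74.1 ± 11.1 CPM in KO (SD, n = 3) and overlapped, as did the other activators and the assembly factors. Sums weigh abundant genes most, and these were given as levels with no test. Relative to the median of all genes, the median of the 31 tested core and cap genes was -0.32 on the log2 scale, and it stayed between -0.39 and -0.28 under the 17 alternatives.

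**Figure D4:**
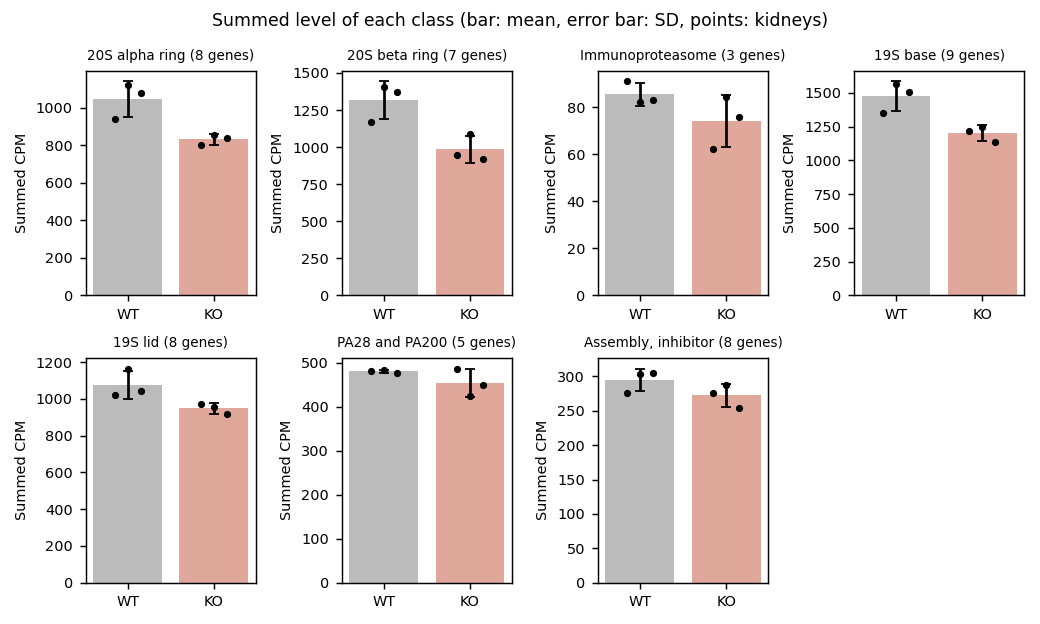
Summed CPM (vertical axes, starting at 0) of each class in WT and KO kidneys, with bars for the mean, error bars for the SD and points for single kidneys. The KO points lie below all WT points in the alpha, beta, base and lid panels and overlap them in the immunoproteasome, activator and assembly panels.

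Other activators open the core in place of the cap. None of the 5 genes passed the edgeR or DESeq2 test or an unadjusted p of 0.05, and all overlapped between genotypes, with a median of -0.10. Psme1 and Psme2 encode the interferon-inducible PA28 ring, and Psme1 was at -0.09 (SE 0.14, edgeR adjusted p = 0.705). Psme3, the nuclear form of PA28, was the highest, with 95.9, 94.1 and 88.5 CPM in WT and 121, 82.7 and 104 CPM in KO. Its KO kidneys fell on both sides of WT (log2 fold change 0.15, SE 0.15, edgeR adjusted p = 0.583). Psme2b was the lowest, with 35.5, 48.6 and 39.2 CPM in WT and 38.3, 25.7 and 30.6 CPM in KO (log2 fold change -0.38, SE 0.18, edgeR adjusted p = 0.203). Of the 75-base windows in its transcripts, 60.2% also occur in Psme2, so the split of reads between these near copies is uncertain. Psme4, which encodes PA200, was at -0.10 (SE 0.17, edgeR adjusted p = 0.749).

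Assembly factors hold subunits in order while the particle is built, and they contained the lowest and the highest members of the whole family. Psmg1, a chaperone of the alpha ring, had 31.3, 32.5 and 33.9 CPM in WT and 18.1, 21.4 and 20.5 CPM in KO. The groups did not overlap, and Psmg1 fell by 0.71 on the log2 scale (SE 0.14, edgeR adjusted p = 0.0112), which is a change of -38.7%. Psmd9, a chaperone of the base, had 38.4, 46.1 and 48.1 CPM in WT and 28.5, 29.3 and 26.6 CPM in KO. It fell by 0.65 (SE 0.14, edgeR adjusted p = 0.0158), again without overlap. Both calls were kept in 14 of 17 alternatives and were lost without WT 2, without WT 3 and with the replicate number as a block.

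The value of Psmd9 has a limit of its own. In the count table the gene spans chr5:123169413-123250131, and the gene Hpd, an enzyme of tyrosine breakdown, lies within that span on the opposite strand. Hpd had 21.8, 35.9 and 58.3 CPM in WT and 3.61, 4.85 and 7.22 CPM in KO, and it fell by 2.89 on the log2 scale (SE 0.37, edgeR adjusted p = 0.00271). Its mean count was 61.2% of that of Psmd9. Of the 75-base windows of Psmd9 transcripts, 24.3% also occur in 1 other gene, which is Gm26745 and not Hpd. Gm26745, a long noncoding gene, had 0 to 3 reads per kidney. Whether reads of Hpd entered the count of Psmd9 was not tested, and Hpd and Sirt3 were looked at after overlapping genes had been listed.

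Psmd10, known as gankyrin and a chaperone of the base, was the highest member, with 51.1, 62.5 and 53.1 CPM in WT and 81.2, 80.8 and 50.9 CPM in KO. KO 1 and KO 2 exceeded every WT kidney and KO 4 was the lowest of all 6, so the difference was not significant (log2 fold change 0.35, SE 0.19, edgeR adjusted p = 0.258). Without KO 4 it passed the test, as the only member called higher in any alternative. Psmf1, an inhibitor of the core, was at 0.17 (SE 0.12, edgeR adjusted p = 0.418), and Psmd5, Psmg2, Psmg3 and Psmg4 lay between -0.34 and -0.14 with edgeR adjusted p values of 0.381 to 0.567.

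The windows before Psmg1 and Psmd9 are printed because these were the members with the lowest values. In Psmg1 (chr16:95990961-95991210, minus strand) the capitals are a gamma-activated site at bases 243 to 235 before the start. In Psmd9 (chr5:123227940-123228189, plus strand) they are interferon-stimulated response element letters at 159 to 150 and antioxidant response element letters at 31 to 23. The RefSeq start of Psmd9 that follows this window lies inside the span of the count table, beyond Hpd.

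Psmg1: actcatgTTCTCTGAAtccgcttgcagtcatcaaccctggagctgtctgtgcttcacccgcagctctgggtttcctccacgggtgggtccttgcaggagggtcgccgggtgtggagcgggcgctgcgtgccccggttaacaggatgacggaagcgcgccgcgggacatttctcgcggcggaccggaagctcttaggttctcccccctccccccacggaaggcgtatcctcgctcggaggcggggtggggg
Psmd9: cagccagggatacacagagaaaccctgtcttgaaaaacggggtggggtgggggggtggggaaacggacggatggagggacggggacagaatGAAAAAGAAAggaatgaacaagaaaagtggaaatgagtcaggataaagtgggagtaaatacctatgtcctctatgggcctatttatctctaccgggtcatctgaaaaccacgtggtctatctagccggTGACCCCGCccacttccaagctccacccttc

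Levels per gene length ranged widely within the particle. In WT kidneys Psmb5 was the highest, at 238 ± 26.5 FPKM (SD, n = 3), followed by Psmb4 at 133 ± 15.1 FPKM and then by Psma6 and Psmc5 at 109 ± 10.8 and 109 ± 10.1 FPKM, which did not differ beyond their spread. Psmb6 (97.7 ± 12.2 FPKM) also lay within the spread of these. The lowest members with a test were Psmd9 at 5.33 ± 0.608 FPKM, Psmg3 at 3.29 ± 0.814, Psmb9 at 2.62 ± 0.0248 and Psmc3ip at 1.64 ± 0.326 FPKM (SD, n = 3). Across the 31 core and cap genes, Spearman's rho of the log2 fold change was -0.62 with the WT level and 0.41 with gene length, and across all 15816 genes it was -0.37 and 0.28. These are correlations across genes, which share the same 6 libraries. The WT values enter both the log2 fold change and the WT level, and FPKM divides by gene length. The log2 fold change and the WT level are therefore not independent, nor are the correlations with level and with length.

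**Figure D5:**
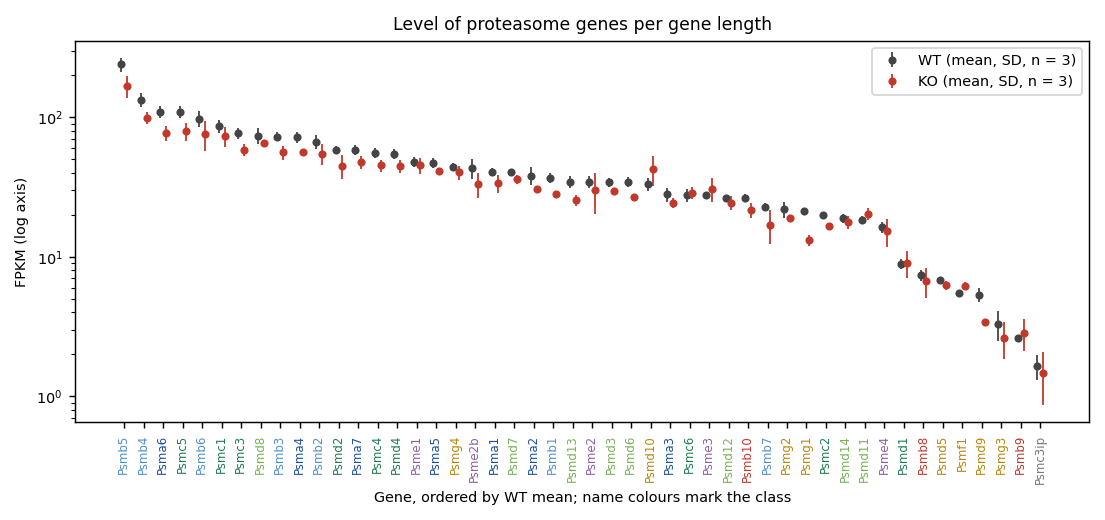
FPKM (log axis) of the 48 tested proteasome genes, ordered by the WT mean, with points for the mean and bars for the SD of 3 kidneys in WT (grey) and KO (red). Psmb5 leads at 238 FPKM in WT, and the KO points lie below the WT points for most of the abundant subunits.

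Partner genes of the pathway were taken from lists by role, and Uba6 was the only one of those named here that passed the edgeR test. DESeq2 also called Zfand2a, Nfya and Nlrc5 higher and Ifit3 lower, as it did 6.92% and 9.13% of all genes. Of all genes, 14% were higher and 14.3% lower at an unadjusted p under 0.05 in edgeR. Among 6 further subunits and assembly genes none passed, and 2 were lower and 0 higher at an unadjusted p under 0.05. The smallest p were those of the lid protein gene Sem1 (log2 fold change -0.54, edgeR adjusted p = 0.127), the core maturation factor Pomp (-0.39, adjusted p = 0.115) and the ubiquitin receptor Adrm1 (-0.21, adjusted p = 0.37). Among 12 regulators none passed, and 1 was lower and 2 higher at an unadjusted p under 0.05. Nfe2l1 had 218, 194 and 207 CPM in WT and 233, 202 and 161 CPM in KO. It overlapped (log2 fold change -0.05, SE 0.16, edgeR adjusted p = 0.869), which concerns its RNA and not the processed protein. The smallest p among regulators were those of 2 subunits of the CCAAT-binding factor and of Maff, a small Maf partner. Nfya was at 0.39 (edgeR adjusted p = 0.0546), Nfyc at -0.41 (adjusted p = 0.123) and Maff at 0.45 (adjusted p = 0.124).

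Among 6 ubiquitin and activating enzyme genes, Uba6, an alternative ubiquitin-activating enzyme, rose. It had 11.9, 9.19 and 8.16 CPM in WT and 21.9, 14.5 and 19.5 CPM in KO, with all KO kidneys above WT (log2 fold change 0.93, SE 0.22, edgeR adjusted p = 0.0266). This call was kept in 10 of 17 alternatives and was lost when WT 2, WT 3, KO 1 or KO 4 was left out. The ubiquitin gene Ubb was at -0.19 (edgeR adjusted p = 0.51). Among 13 receptors and deubiquitinases none passed. At an unadjusted p under 0.05, 1 was lower and 2 higher, beside 14.3% and 14% of all genes. Zfand2a, a stress-induced proteasome partner, was at 0.53 (edgeR adjusted p = 0.0508), Zfand5 at 0.36 (adjusted p = 0.119) and the segregase Vcp at -0.37 (adjusted p = 0.149).

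The genes that usually move with the immunoproteasome were also compared. Of 11 genes of MHC class I presentation none passed. At an unadjusted p under 0.05, 2 were higher and 0 lower, beside 14% and 14.3% of all genes. The smallest p were those of the transactivator Nlrc5 (0.76, edgeR adjusted p = 0.0802), Tap1 (0.28, adjusted p = 0.163) and Tap2 (0.26, adjusted p = 0.3). Of 19 tested interferon response genes none passed, and 1 was higher and 2 lower at an unadjusted p under 0.05. Isg15 (-0.65, edgeR adjusted p = 0.102), Ifit3 (-0.76, adjusted p = 0.107) and Gbp7 (0.37, adjusted p = 0.14) went in different directions. Leukocytes are rich in immunoproteasome subunits. The 12 leukocyte markers had a summed level of 99.9 to 109 CPM in WT and 92.0 to 137 CPM in KO. Of them 7 were tested and none passed, and 2 were higher and 0 lower at an unadjusted p under 0.05. Of these 7, 4 were below 0 (Csf1r at -0.32, Adgre1 at -0.28, S100a8 at -0.12 and Cd68 at -0.06), and the median was -0.06. The myeloid gene Lyz2 was at 1.35 (edgeR adjusted p = 0.0911), with 43.1 CPM in KO 1 against 12.6 and 16.4 CPM in the other KO kidneys, and ranged from 0.62 to 1.66 over the alternatives. Itgam was at 0.51 (adjusted p = 0.548) and Ptprc, which encodes CD45, at 0.76 (adjusted p = 0.164). Cd3e, Nkg7 and Ly6g, markers of T cells, natural killer cells and neutrophils, had 0 to 5 reads in every kidney, while the T cell marker Cd8a had 2 to 28 and the neutrophil marker S100a8 had 10 to 64. The endothelial markers reached 119 CPM in KO 4, against 26.3 and 26.6 CPM in KO 2 and KO 1 and 51.1 to 57.2 CPM in WT, and KO 4 was also the kidney with the highest Psmb9. The part of either cell type in these values was not tested.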

How the data were processed

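Kidney RNA was extracted with Trizol, and libraries were made with a NEBNext Ultra II kit and sequenced on an Illumina instrument. The authors deposited whole-number read counts per gene, not normalized, and FPKM values, which divide by gene length and library size. The submitters' processing notes name HISAT2, StringTie and mm9, without versions. The positions in the table equal GENCODE M21 (GRCm38) for 98.3% of the genes found there, and these were used. Strandedness is not given in the sources used here.

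Counts were tested with edgeR 4.0.16 (R 4.3.3): TMM, filterByExpr, quasi-likelihood F test, Benjamini-Hochberg over 15816 genes. CPM values use TMM library sizes. FPKM ratios were compared with an exact permutation test. The alternatives were other normalizations and filters, DESeq2 1.42.0, limma 3.58.1, protein-coding genes only, no mitochondrial genes, a replicate block and leaving out each mouse. The tests were checked on simulated counts with 200 genes changed 4-fold and 1 common dispersion for all genes. That change is larger than the one of any member here. Labels name separate numbered samples, and replicates differed beyond sampling noise (chi-square per degree of freedom 14.5 to 40.9). The members and lists were chosen with earlier results of these data known. Values in every kidney were given for called members, catalytic pairs and the extremes of each class. Of each partner list the 3 genes with the smallest p were named, plus Nfe2l1, except where a gene is not reported here. Promoter windows are from RefSeq.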

Additional observations from a re-analysis of the deposited data

How the results depend on the processing

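The number of members that passed an adjusted p of 0.05 and were lower in KO was 3 (6.25%, against 7.28% of all genes). It lay between 2 and 4 with RLE or upper-quartile normalization, a mean CPM of at least 1, limma-voom, limma on log2(FPKM + 1) or log2(FPKM + 0.1), protein-coding genes only, or without mitochondrial genes. Those counts were 4.17% to 8.33% of the members, against 6.67% to 8.32% of all genes. The number was 6 with no filter on low counts (12% of the members, against 5.86% of all genes) and 9 with DESeq2 (18.8%, against 9.13%). It was 0 with the threshold of an absolute log2 fold change above 1, which 4.1% of all genes passed downwards. When each mouse was left out in turn it was 0 to 5. Numbers 1 and 2 are shared by different mice of both genotypes, and the deviations of same-numbered mice correlated at 0.0641 and -0.01205, so the pairing is one of number only. With the replicate number as a block, 0 members passed and 4.18% of all genes were lower, with a core and cap median relative to all genes of -0.30. Members called higher in KO numbered 0 in all alternatives except 1, Psmd10, without KO 4. The median of core and cap genes relative to all genes was -0.32 and ranged from -0.39 to -0.28 when each mouse was left out or another setting was used. Of 816 values of single members under the 17 alternatives, 783 kept their direction or stayed uncalled, 17 lost and 16 gained a call. With each mouse left out, the log2 difference of Psmb8 to Psmb5 was 0.20 to 0.57, that of Psmb9 to Psmb6 0.24 to 0.72 and that of Psmb10 to Psmb7 -0.000645 (without KO 4) to 0.44. The causes were not tested. The median over all genes moved by at most 0.04 on the log2 scale.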
